A study of Mus musculus with 8 samples.

Results

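The genes described here are 32 mouse genes of glucose breakdown and of the response to low oxygen, chosen by name from 48709 genes counted in neonatal cortex. The rule used no measured value, but the list was drawn up with earlier results of these data known. The cortices were taken at P3 from 4 control and 4 dcKO_hGFAP-Cre mice, all of C57BL/6J background. The dcKO_hGFAP-Cre mice (mutants below) are floxed on both alleles of the genes for BAF155 and BAF170, core parts of a chromatin remodelling machine called BAF, and carry hGFAP-Cre, a Cre recombinase transgene under the promoter of human GFAP. The controls are wild type according to the sample labels, but according to the study's methods they carry Cre and a single floxed copy of each gene. The promoter is active in radial glia of the dorsal telencephalon, the progenitors of cortical neurons and glia, so a whole-tissue sample can hold deleted and undeleted cells. Replicates 1 and 2 of both groups were sequenced on lane 5, replicates 3 on lane 6 and replicates 4 on lane 7. The labels do not say more about the origin of the mice, and p-values weigh a difference between the groups against the spread between these samples.

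Glycolysis turns glucose into pyruvate in the cytosol, beginning with hexokinase and ending with pyruvate kinase, and lactate dehydrogenase interconverts pyruvate and lactate. In brain, astrocytes are known for strong glycolysis and lactate export, and neurons for uptake and oxidation of lactate. The hypoxia-inducible factors (HIFs) are transcription factors whose alpha subunits, HIF1A and EPAS1 (HIF2A), are marked for destruction by the prolyl hydroxylases EGLN1 and EGLN3 while oxygen is available. In low oxygen the alpha subunits persist, pair with ARNT and bind short core letters, ACGTG or GCGTG, near target genes, many of which encode glycolytic enzymes. HIF activity is set largely through the stability of the protein, which RNA levels do not measure.

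Levels are given in CPM, normalised counts that put every sample on a common total after TMM scaling, which corrects for differences in library composition. Total counts were 21126713 to 32110285 per sample. Groups were compared with edgeR's quasi-likelihood test, a model of counts fitted to the 16525 genes that passed its filter on low counts, and a gene was called when its p, adjusted by the Benjamini-Hochberg method over all of these genes, was under 0.05. Fold changes are log2 values of mutant over control. Smarcc1, which encodes BAF155, and Smarcc2, which encodes BAF170, lay lower in all 4 mutants than in all 4 controls. Cortical projection neuron markers were detected in all samples, but 5 of 6 were called lower in the mutants, with a summed level of 1195 to 1401 CPM in controls and 496 to 629 CPM in mutants. Mutant replicates 1 and 2 stood apart by choroid plexus RNA, with summed markers of 602.5 and 1159 CPM against 2.66 to 19.1 CPM in the other 6 samples. Mutant replicate 3 stood apart by astrocyte RNA, as given with Aldoc. Markers of striatal neurons also moved with the groups, with 3 of 6 called higher and sums of 112 to 156 CPM in controls and 344 to 604 CPM in mutants. Of 5 pericyte markers, 1 was called lower, beside 18.9% of all genes tested, and 3 had positive fold changes. Their sums overlapped, at 207 to 248 CPM in controls and 180 to 270 CPM in mutants. Mitochondrial genes took 2.06 to 3.23% of counts in controls and 3.57 to 5.47% in mutants. The part of these differences in the results was not tested. In bulk tissue, fewer cells of a type and less RNA per cell cannot be told apart.

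All 32 members passed the filter. Of these, 6 were called lower and 1 higher in the mutants, and 25 were not called. Levels of the groups did not overlap for 7 members, 5 lower and 2 higher, beside 34.4% of all genes tested. The 7 calls are 21.9% of the members, beside 37.5% of all genes tested (18.9% lower and 18.6% higher). The median log2 fold change was -0.11 over the members and 0.02 over all genes, and the median size of the change was 0.19 and 0.29. When samples were scaled by library totals instead, the median of all genes moved by 0.12, that of the members became 0.0081, and 4 members were called lower and 4 higher. By role, 2 of the 21 genes of glycolysis and transport were called, both lower (9.5%, beside 37.5% of all genes tested). With library totals, the calls among these 21 were Hk1 lower and Ldhb and Pdk1 higher. Of the 11 genes of the hypoxia response, 5 were called, 4 lower and 1 higher (45.5%, beside 37.5% of all genes tested). Whether this split differs from that of other genes was not tested.

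**Figure D1:**
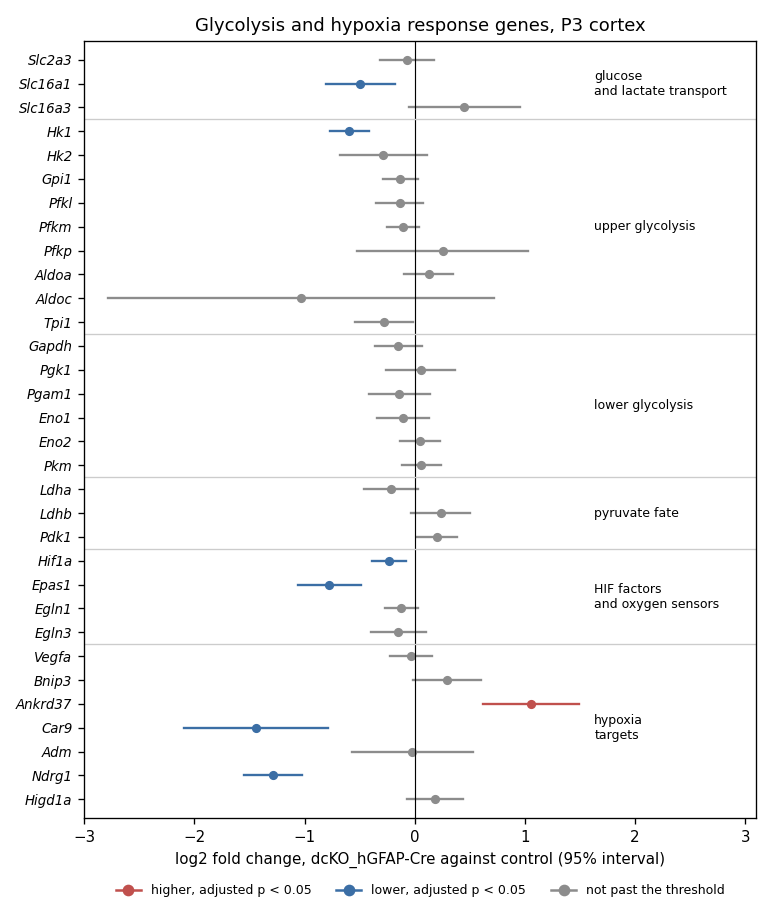
Log2 fold change of each of the 32 members in dcKO_hGFAP-Cre against control cortex (x axis, n = 4 each), with 95% intervals, ordered by role. Most enzymes of glycolysis sit near 0, with Hk1 at -0.59, whereas Ndrg1 and Car9 lie lowest at -1.28 and -1.44 and Ankrd37 highest at 1.06. The long bar of Aldoc comes with 1 mutant whose level was above all controls.

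Glucose and lactate cross membranes through carriers. Slc16a1 encodes MCT1, a lactate and pyruvate carrier of vessels and glia. It measured 58.7, 69.0, 73.4 and 70.6 CPM in the controls and 50.3, 47.2, 60.8 and 34.8 CPM in the mutants. Mutant replicate 4 was lowest, and mutant replicate 3 lay above the lowest control, so the groups overlapped. The log2 fold change was -0.49 ± 0.14 (SE, n = 4 per group, edgeR adjusted p = 0.0175). The call was lost without control replicate 3 (adjusted p = 0.0524), with library totals (adjusted p = 0.0567) and without mutant replicates 1 and 2 (adjusted p = 0.0923). Mutant replicate 4 also had the lowest summed endothelial markers, at 79.9 CPM. The sum was 129 to 153 CPM in the other mutants and 144 to 187 CPM in the controls, so the groups overlapped. Of the 7 markers, 2 were called lower (28.6%, beside 18.9% of all genes tested) and none was at 0. Their part in the result was not tested.

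Slc2a3, the neuronal glucose carrier GLUT3, ranged from 78.2 to 101 CPM in controls and from 70.1 to 101 CPM in mutants, with a log2 fold change of -0.07 ± 0.11 (edgeR adjusted p = 0.641). Slc16a3 encodes MCT4, the lactate exporter of astrocytes, and was scarce. It measured 2.16, 2.22, 1.89 and 2.36 CPM in controls and 2.52, 1.82, 3.58 and 3.77 CPM in mutants, of which 3 lay above all controls and 1 below them. Its log2 fold change of 0.45 ± 0.23 was not called (edgeR adjusted p = 0.147). It was called without mutant replicate 2 (adjusted p = 0.044) and without both mutants of lane 5 (log2 fold change 0.77, adjusted p = 0.0324).

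The upper steps of glycolysis spend ATP to trap glucose and split it. Hk1, the main hexokinase of brain, catalyses the entry step and was the 1 enzyme of 17 that was called (5.9%, beside 37.5% of all genes tested). Its level was 389, 406, 469 and 448 CPM in controls and 265, 289, 272 and 309 CPM in mutants. All mutants lay below all controls, as for 17.7% of all genes tested. The log2 fold change was -0.59 ± 0.08 (edgeR adjusted p = 0.000182), so the level fell by 33.7%, and the within-lane log2 ratios were -0.52 for lane 5, -0.78 for lane 6 and -0.54 for lane 7. Neuron markers moved with it: 5 of 6 were called lower and their sum was 6558 to 7172 CPM in controls and 4810 to 5279 CPM in mutants, with none at 0. Their part in the level of Hk1 was not tested.

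Hk2, the hexokinase that HIF induces, was present at 4.14 to 4.52 CPM in controls and 2.69 to 4.61 CPM in mutants (log2 fold change -0.28 ± 0.18, edgeR adjusted p = 0.243). Gpi1, which converts glucose phosphate to fructose phosphate, gave -0.13 (adjusted p = 0.189). The phosphofructokinases commit sugar to glycolysis. Pfkl, the liver type, gave -0.14 (adjusted p = 0.297) and Pfkm, the muscle type, -0.11 (adjusted p = 0.242). Pfkp, the platelet type, varied most within groups among the 3, at 464, 292, 188 and 241 CPM in controls and 359, 307, 243 and 503 CPM in mutants (log2 fold change 0.25 ± 0.33, adjusted p = 0.584). Its annotated exons share 748 bases with Pitrm1 on the opposite strand, so some counts may belong to either gene. Tpi1, which interconverts the triose phosphates, gave -0.28 ± 0.12 and was not called (adjusted p = 0.09), but was called without control replicate 1 (adjusted p = 0.0308) and without mutant replicate 3 (adjusted p = 0.0119), and with the lane as a block (adjusted p = 0.0435).

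Aldolases split fructose bisphosphate. Aldoa, the widespread form, measured 269 to 346 CPM in controls and 293 to 388 CPM in mutants (log2 fold change 0.13 ± 0.10, edgeR adjusted p = 0.349). Aldoc, the form enriched in astrocytes, measured 164, 171, 195 and 215 CPM in controls and 42.03, 43.5, 245 and 33.2 CPM in mutants. Mutant replicates 1, 2 and 4 lay below all controls and mutant replicate 3 lay above them. Over all 8 samples the log2 fold change was -1.03 ± 0.72 and was not called (edgeR adjusted p = 0.309). Without mutant replicate 3 it was -2.24 (adjusted p = 1.63e-07).

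Mutant replicate 3 was also above the other 3 mutants for 7 of 8 astrocyte and radial glia markers, all but Gjb6. Against the controls it was above all 4 for 5 markers, within their range for 2 and below all 4 for 1, Fgfr3. Gfap, the intermediate filament of astrocytes, measured 79.3 to 89.5 CPM in controls, 273 CPM in mutant replicate 3 and 24.2 to 32.2 CPM in the other mutants. Aqp4, the water channel of astrocyte endfeet, was 38.8 to 63.7 CPM in controls, 53.0 CPM in mutant replicate 3 and 9.49 to 9.92 CPM in the other mutants. The sum of the 8 markers was 1076 to 1244 CPM in controls, 1508 CPM in mutant replicate 3 and 683 to 794 CPM in the other mutants, 2 of 8 were called lower and none was at 0. The part of these cells in the level of Aldoc was not tested.

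**Figure D2:**
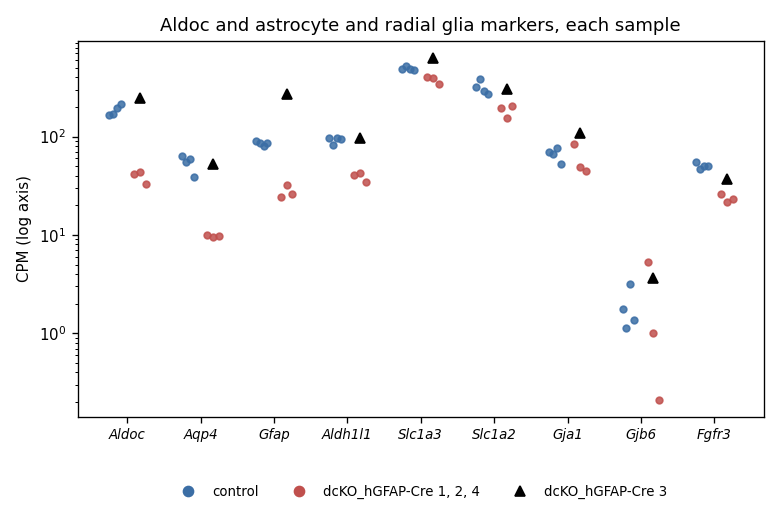
Level of Aldoc and of 8 astrocyte and radial glia markers in each sample (y axis, CPM on a log axis; 4 control and 4 dcKO_hGFAP-Cre samples, replicate 3 of the latter as a triangle). For Aldoc, Aqp4, Gfap and Aldh1l1, mutant replicate 3 sits apart from the other 3 mutants, at 245 CPM against 33.2 to 43.5 CPM for Aldoc.

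None of the 6 members of the lower steps, in which ATP is made, was called by edgeR's test (0 at an unadjusted p under 0.05, and 0 with DESeq2 or limma-voom). Their log2 fold changes ran from -0.15 to 0.06. Gapdh, which oxidizes triose phosphate, gave -0.15 (adjusted p = 0.259), Pgk1, which makes the first ATP of the pathway, 0.05 (adjusted p = 0.799) and Pgam1, which moves the phosphate, -0.14 (adjusted p = 0.412). Among the enolases, Eno1, the widespread form, gave -0.11 (adjusted p = 0.459) and Eno2, the neuronal form, 0.05 (adjusted p = 0.693). Pkm, pyruvate kinase, was 369 to 447 CPM in controls and 409 to 456 CPM in mutants, with a log2 fold change of 0.06 ± 0.08 and a 95% interval of -0.11 to 0.24 (adjusted p = 0.579).

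Gapdh is a usual reference gene, and many near-identical copies of it are annotated. It measured 30.3 to 37.5 CPM in controls and 28.5 to 35.1 CPM in mutants, or 8.27 CPM per kilobase of annotated exon in controls, where Aldoa had 103. The annotation holds 121 genes that match Gapdh at 95% identity or more over 200 bases or more. Of these, 116 are pseudogenes, which together held 3596 counts over the 8 samples beside 6850 for Gapdh. With these copies added the log2 ratio of the group means was -0.13 in place of -0.15. This sum cannot restore reads that were left uncounted because they match several genes. Gm10359 and Gm12671, identical to Gapdh over 1002 bases, held 1 count each, and 3000002C10Rik, at 95.8% identity over 831 bases, held 638. How many reads of Gapdh were left uncounted was not tested. Levels of members with many copies are therefore uncertain, since the counting of reads that match several genes is not given in the sources used here.

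Per kilobase of exon, control cortex held most RNA of Aldoa (103 CPM per kilobase), followed by Ldha (85.3), Pkm (82.0), Pfkm (67.4), Ldhb (62.8), Tpi1 (58.2), Aldoc (57.0), Hk1 (50.2) and Eno2 (40.6). Hk2 (0.722), Slc16a3 (0.406) and Car9 (0.276) were lowest. Exon length here joins all annotated isoforms of a gene, so a gene with long minor isoforms appears lower than it is. The order is also uncertain for members with near-identical copies, both high in it, such as Ldha, Pkm, Ldhb and Tpi1, and low, such as Gapdh (8.27), Pgk1 (5.84) and Pgam1 (4.17). Pgk1 and Pgam1 each have a pseudogene copy at 100% identity that held 0 counts.

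At the end of the pathway, pyruvate is reduced to lactate or enters the mitochondrion. Ldha, the muscle form of lactate dehydrogenase, was 257 to 319 CPM in controls and 209 to 298 CPM in mutants (log2 fold change -0.22 ± 0.11, edgeR adjusted p = 0.147). Ldhb, the heart form, was 91.5 to 107 CPM in controls and 87.7 to 144 CPM in mutants (log2 fold change 0.23 ± 0.13, adjusted p = 0.157). Neither was called, but Ldha was without mutant replicate 3 (adjusted p = 0.0125), and Ldhb was without mutant replicate 4 (adjusted p = 0.0103) and with library totals (adjusted p = 0.0396). Pdk1, the kinase that blocks pyruvate dehydrogenase, measured 39.4, 45.7, 46.5 and 44.3 CPM in controls and 48.6, 48.2, 54.3 and 51.5 CPM in mutants. All mutants lay above all controls, as for 16.7% of all genes tested, but the log2 fold change of 0.20 ± 0.08 was not called (adjusted p = 0.0758) except with library totals (adjusted p = 0.00669).

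A ratio of 2 related genes within a sample does not depend on library scaling, and 9 such pairs were compared with exact two-sided permutation tests over 70 arrangements, whose smallest p is 0.0286. The log2 ratio of Ldhb to Ldha was -1.42, -1.49, -1.57 and -1.58 in controls and -0.92, -1.002, -1.05 and -1.32 in mutants. The groups did not overlap, and the difference was 0.44 (exact p = 0.0286, 0.0857 adjusted over the 9 pairs). The same p held for Slc16a3 to Slc16a1, with a difference of 0.90, and for Epas1 to Hif1a, with a difference of -0.56, both without overlap of the groups. The remaining pairs overlapped, with exact p of 0.114 for Aldoc to Aldoa (difference -1.70), 0.143 for Hk2 to Hk1 (0.27), 0.257 for Eno2 to Eno1 (0.15), 0.343 for Pfkp to Pfkm (0.39), 0.314 for Pfkp to Pfkl (0.42) and 0.83 for Egln3 to Egln1 (-0.02). No pair passed after adjustment, and with 4 mice per group a single pair could not have passed after adjustment over 9.

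**Figure D3:**
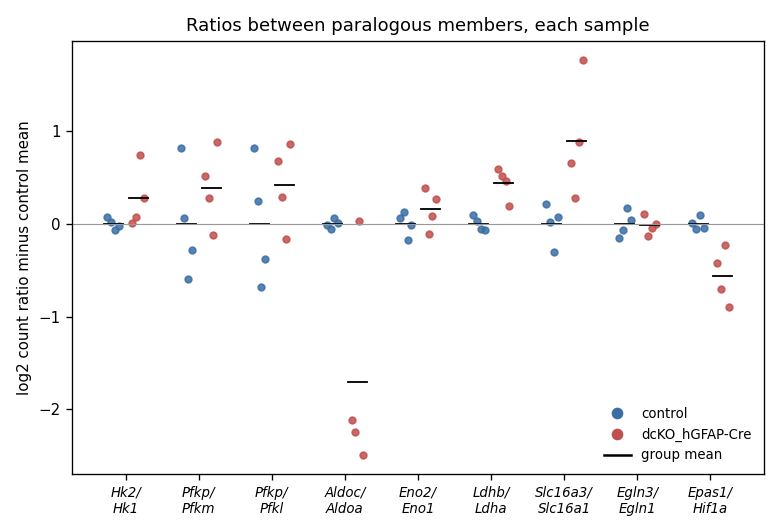
Log2 ratio of counts of 9 pairs of related members in each sample, less the control mean of the pair (y axis), with control and dcKO_hGFAP-Cre samples as points and group means as bars (n = 4 each). The groups separate for Ldhb/Ldha, Slc16a3/Slc16a1 and Epas1/Hif1a, and 3 of 4 mutants lie far below the controls for Aldoc/Aldoa.

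The HIF alpha subunits were both called lower. Epas1, the subunit of vessels and astrocytes, measured 48.7, 55.0, 56.9 and 50.6 CPM in controls and 33.3, 27.1, 38.7 and 24.4 CPM in mutants. No mutant reached the lowest control. The log2 fold change was -0.77 ± 0.13 (edgeR adjusted p = 0.000746), so the level fell by 41.5%, with within-lane log2 ratios of -0.78, -0.56 and -1.05 for lanes 5, 6 and 7. As for Slc16a1, mutant replicate 4 was lowest and mutant replicate 3 highest among the mutants. The same 2 mutants were lowest and highest for the summed endothelial markers (79.9 and 153 CPM) and for the summed astrocyte and radial glia markers (683 and 1508 CPM). The part of either cell type in Epas1 or Slc16a1 was not tested.

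Hif1a, the subunit made by nearly all cells, was 119, 139, 130 and 128 CPM in controls and 109, 108, 111 and 111 CPM in mutants. The groups did not overlap but lay close together, with a log2 fold change of -0.24 ± 0.07 (edgeR adjusted p = 0.0208). The call was lost with library totals (log2 fold change -0.11, adjusted p = 0.195), without a filter (adjusted p = 0.054), without control replicate 2 (adjusted p = 0.055) or 3 (adjusted p = 0.0548) and without mutant replicates 1 and 2 (adjusted p = 0.14). The oxygen sensors were not called. Egln1 gave -0.12 ± 0.07 (adjusted p = 0.184), and Egln3, itself a HIF target, -0.15 ± 0.11 (adjusted p = 0.326).

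Among the 7 targets, Ndrg1, Car9 and Ankrd37 were called, and they moved in different directions. Ndrg1 encodes a stress-induced protein that Schwann cells need for myelin and that oligodendrocytes also make. Its level was 88.6, 105, 124 and 121 CPM in controls and 37.3, 43.7, 49.1 and 49.9 CPM in mutants. The highest mutant stood well under the lowest control. The log2 fold change was -1.28 ± 0.12 (edgeR adjusted p = 1.21e-05), so the level fell by 58.9%, and within-lane log2 ratios were close to each other at -1.26, -1.34 and -1.28. Markers of oligodendrocyte precursors fell with it: 5 of 5 were called lower, with a sum of 367 to 400 CPM in controls and 220 to 295 CPM in mutants and none at 0, and their part in the result was not tested.

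Car9 encodes a carbonic anhydrase of the cell surface and is among the most hypoxia-dependent genes known. It was near the limit of detection, with 13, 16, 16 and 18 counts in controls and 6, 5, 7 and 7 counts in mutants. In CPM this was 0.60, 0.79, 0.53 and 0.62 against 0.26, 0.21, 0.24 and 0.21, without overlap. The log2 fold change was -1.44 ± 0.30 (edgeR adjusted p = 0.00286), a value that rests on few counts and that a filter of 10 counts in every sample leaves out.

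Ankrd37, which encodes an ankyrin repeat protein induced by HIF, was the 1 member called higher. It measured 1.24, 1.38, 1.89 and 1.98 CPM in controls and 3.08, 3.56, 3.89 and 3.14 CPM in mutants, with all mutants above all controls. The log2 fold change was 1.06 ± 0.20 (edgeR adjusted p = 0.00159), or 2.08-fold, and it was 1.34, 1.04 and 0.67 within lanes 5, 6 and 7. Its exons share 57 bases with Ufsp2 and 349 bases with Lrp2bp on the opposite strand. Neither neighbour was called, with log2 fold changes of 0.11 (adjusted p = 0.497) and -0.35 (adjusted p = 0.456).

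**Figure D4:**
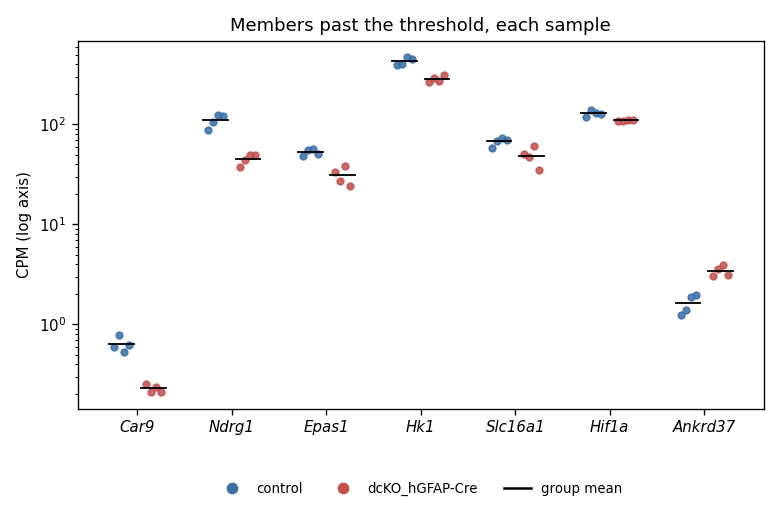
Level of the 7 called members in each of 4 control and 4 dcKO_hGFAP-Cre samples (y axis, CPM on a log axis), with bars for group means. The groups separate for all but Slc16a1, and the gap is narrow for Hif1a, at 119 to 139 CPM against 108 to 111 CPM.

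The other 4 targets were not called. Vegfa, the growth factor of vessels, measured 59.7, 48.9, 49.8 and 52.0 CPM in controls and 49.9, 49.6, 49.6 and 56.5 CPM in mutants (log2 fold change -0.03 ± 0.09, edgeR adjusted p = 0.793, 95% interval -0.23 to 0.16). Bnip3, which promotes removal of mitochondria, was 6.46 to 9.61 CPM in controls and 9.03 to 11.3 CPM in mutants (log2 fold change 0.29 ± 0.14, adjusted p = 0.128), and was called with library totals alone (adjusted p = 0.035). Adm, the vasodilator peptide adrenomedullin, was at 1.06 to 1.83 CPM in controls and 0.91 to 1.53 CPM in mutants (log2 fold change -0.02 ± 0.25, adjusted p = 0.958). Higd1a, a mitochondrial protein of the inner membrane, gave 0.18 ± 0.12 (adjusted p = 0.243). Of the 7 targets, 2 were thus lower, 1 higher and 4 not called, so 42.9% were called beside 37.5% of all genes tested.

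The promoters of the 3 targets with the smallest p that have a RefSeq window, Ankrd37, Car9 and Bnip3, are shown with their HIF core letters. The letters ACGTG and GCGTG were searched on both strands in the 250 bases before each RefSeq start (GRCm38.p6), a window that 29 of the 32 members have (all but Slc2a3, Epas1 and Ndrg1). Capitals mark the matches, which read CACGT or CACGC where they lie on the opposite strand. The window of Ankrd37 (chr8:45999851-46000100, minus strand) held 4 matches, beginning 241, 155, 152 and 6 bases before the start, that of Bnip3 (chr7:138909507-138909756, minus strand) held 5, and that of Car9 (chr4:43506776-43507025, plus strand) held 1, which began 18 bases before the start and is shown with its last 30 bases (chr4:43506996-43507025). GENCODE places the start of Car9 earlier, at 43506966 on chromosome 4, so the stretch printed for Car9 and its match lie inside an annotated transcript. The window of Ankrd37 likewise lies within the span that GENCODE gives the gene, 45996902 to 46005707 on chromosome 8. Of its bases, 17 lie in annotated untranslated regions. It also lies within the span of Lrp2bp on the opposite strand.
Ankrd37: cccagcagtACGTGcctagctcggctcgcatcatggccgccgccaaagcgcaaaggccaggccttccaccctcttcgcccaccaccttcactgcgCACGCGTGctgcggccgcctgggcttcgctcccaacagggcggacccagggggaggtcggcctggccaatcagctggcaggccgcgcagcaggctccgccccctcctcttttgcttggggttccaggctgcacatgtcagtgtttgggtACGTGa
Bnip3: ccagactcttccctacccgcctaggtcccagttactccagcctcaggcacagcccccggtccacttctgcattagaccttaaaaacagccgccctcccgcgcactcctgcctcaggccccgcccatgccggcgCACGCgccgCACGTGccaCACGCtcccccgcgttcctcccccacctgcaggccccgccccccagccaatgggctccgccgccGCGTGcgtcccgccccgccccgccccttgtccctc
Car9: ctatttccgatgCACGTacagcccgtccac

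The run CACGTG in the Bnip3 promoter counts as a match on each strand and is also the E-box that other factors bind. Over all members, 33 of 42 windows (78.6%) held at least 1 match, beside 38.6% of all 32851 windows and 44.0% of those of protein-coding genes. These are shares of windows and not of genes. Some genes have several windows that overlap, such as Eno1, so the same match can count more than once. A match is a description of the letters and not evidence of binding.

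The wider pathways, from lists of other genes, were read in the same fit. Of 25 other glycolysis genes tested and reported, 5 were called lower and 5 higher, 40.0% beside 37.5% of all genes. Those with the smallest p were Pdha1, a subunit of pyruvate dehydrogenase (log2 fold change -0.41, edgeR adjusted p = 0.000719), Hk3, a hexokinase of myeloid cells (1.22, adjusted p = 0.0027), and Pfkfb3, which makes an activator of phosphofructokinase (-0.39, adjusted p = 0.00318). Microglia markers moved with Hk3: 5 of 7 were called higher, with a sum of 73.1 to 102 CPM in controls and 134 to 162 CPM in mutants and none at 0. Slc2a1, the glucose carrier GLUT1 of vessels and astrocytes, chosen after its values were seen, was 35.7 to 47.3 CPM in controls and 23.2 to 32.8 CPM in mutants (log2 fold change -0.54, adjusted p = 0.00445).

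Of 25 other HIF pathway genes tested, 6 were called lower and 8 higher, 56.0% beside 37.5% of all genes. Those with the smallest p were Bhlhe40, a transcriptional repressor (log2 fold change -1.01, edgeR adjusted p = 7.24e-06), Ddit4, an inhibitor of mTORC1 signalling (0.74, adjusted p = 5.02e-05), and Flt1, a VEGF receptor of endothelial cells (-0.88, adjusted p = 0.000202). Kdr, the main VEGF receptor and likewise chosen after its values were seen, gave -0.62 (adjusted p = 0.00237). Of the 7 endothelial markers, 2 were called lower (28.6%, beside 18.9% of all genes tested), and the groups overlapped in their sum, as given above. As among the members, HIF pathway genes were called in both directions.

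**Figure D5:**
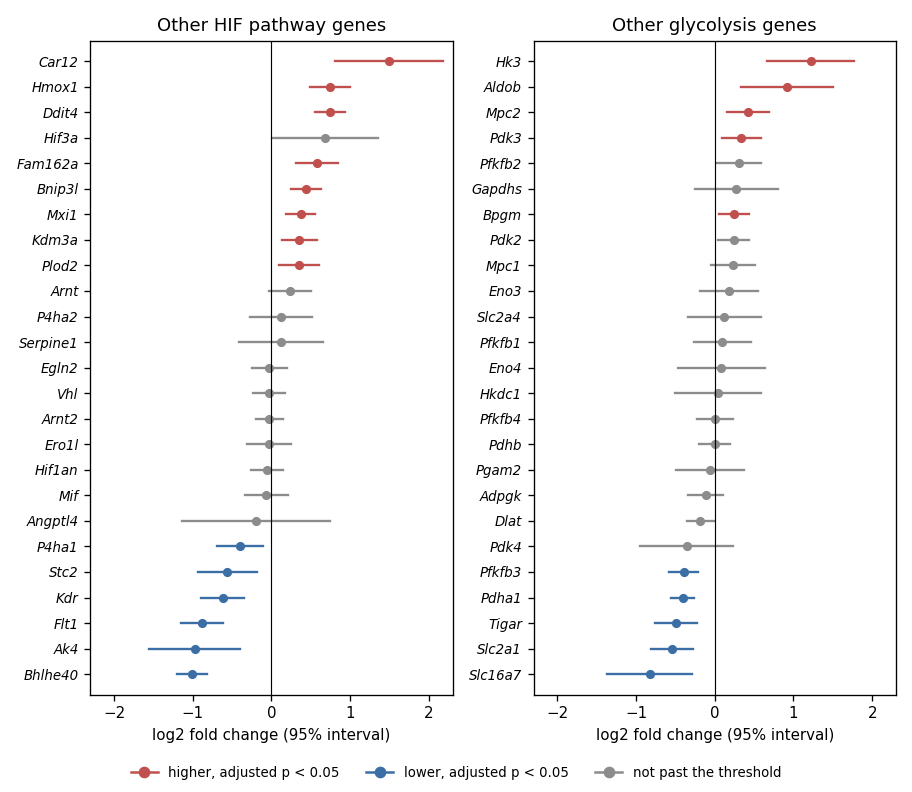
Log2 fold change in dcKO_hGFAP-Cre against control cortex (x axes, n = 4 each) with 95% intervals, for 25 other HIF pathway genes and 25 other glycolysis genes. Both panels hold genes called higher, such as Ddit4 at 0.74 and Hk3 at 1.22, and genes called lower, such as Bhlhe40 at -1.01 and Pdha1 at -0.41.

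The adjoining routes of sugar carbon were read likewise. In the pentose phosphate pathway, which makes NADPH and ribose, 3 of 8 genes were called lower and none higher. This is 37.5%, beside 37.5% of all genes called in either direction and 18.9% called lower. The 3 were Tkt, transketolase (log2 fold change -0.59, edgeR adjusted p = 0.000218), Taldo1, transaldolase (-0.38, adjusted p = 0.0186), and G6pdx, the entry enzyme (-0.22, adjusted p = 0.0497). Summed levels of the 8 genes were 650 to 786 CPM in controls and 536 to 616 CPM in mutants, without overlap. Such a sum is set mostly by the most abundant genes. Of the 8 fold changes, 5 were negative and 3 positive, with a median log2 value of -0.11. Taken singly, 2 of the genes had groups that did not overlap, beside 34.4% of all genes tested. Of 16 genes of the TCA cycle, 3 were called lower and 2 higher, 31.25% beside 37.5% of all genes. Cs, citrate synthase, gave -0.45 (adjusted p = 0.000821), Sdhd, a subunit of succinate dehydrogenase, 0.44 (adjusted p = 0.0081) and Ogdh, of the oxoglutarate dehydrogenase complex, -0.27 (adjusted p = 0.0222).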

How the data were processed

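The authors made TruSeq cDNA libraries from total RNA, aligned the reads to mm10 and counted them per gene with featureCounts; the deposited values are raw counts per Ensembl gene. The aligner, annotation, strand setting and multi-mapping setting are not given in the sources used here. Identifiers were matched to GENCODE release M21 (48349 of 48709 genes), and 30608 genes had a count in some sample.

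Counts were scaled with TMM, filtered with edgeR's default (minimum count 10) and tested with its quasi-likelihood test (edgeR 4.0.16, R 4.3.3; threshold 0.05). Standard errors are the fold change divided by the root of F. Exact permutation tests used log2 ratios of counts with 0.5 added. Alternatives were DESeq2 (1.42.0), limma-voom (limma 3.58.1), other scalings and filters, blocks, and each sample left out. No 2 samples were duplicates. A count of 3 in the shallowest sample is 0.148 CPM, and such values carry large counting error.

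The members and the other lists were chosen with earlier results of these data known. All members are named, and of each other list the 3 genes with the smallest p. The list of other glycolysis genes is given without 1 gene, which is not reported here and was left out after the values were seen. The test was checked on simulated counts; a limit on the share of changed genes it recovers, which was set first, was missed and then dropped with the simulation unchanged, and limits on bias, direction and false calls, which it met, took its place. DESeq2 and the replicate block exceeded the limit on false calls there.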

Additional observations from a re-analysis of the deposited data

Results flagged for a closer look

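In 4 of 82 comparisons of a group of 4 samples, 1 sample stood apart by Dixon's criterion, and chance gives about 4.1 such cases. Aldoc was highest in dcKO_hGFAP-Cre replicate 3, at 245 CPM beside 33.2 to 43.5 CPM in the other mutants. The log2 ratio of Aldoc to Aldoa was highest in the same mouse, at -0.66 beside -3.18 to -2.80. Both flags rest on the same counts of Aldoc. Vegfa was highest in dcKO_hGFAP-Cre replicate 4, at 56.5 CPM beside 49.6 to 49.9 CPM, a small step among close values and below the highest control. Adm was lowest in dcKO_hGFAP-Cre replicate 4, at 0.91 CPM beside 1.45 to 1.53 CPM, from few counts.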

How the results depend on the processing

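Hk1, Epas1, Ankrd37, Car9 and Ndrg1 were called in every alternative that tested them, and no member changed sign while called. With library totals, 4 members were called higher and the median log2 fold change of the members was 0.0081. With each replicate left out in turn, members called lower numbered 4 to 9 and higher 1 to 2, all genes called lower 2375 to 3273 and higher 2199 to 3308, and the member median ran from -0.15 to -0.08. Without control replicate 3, 4 members were called lower, and without mutant replicate 3, 9 were, Aldoc, Ldha and Tpi1 being added. Without the 2 mutants of lane 5, an alternative chosen after seeing the data, 2 members were called higher, and 1581 genes were called lower and 1388 higher. With the replicate number as a block, 6 members were lower and 1 higher, and 2982 genes were lower and 2932 higher. The block took the call from Hif1a (adjusted p = 0.0543) and gave one to Tpi1 (adjusted p = 0.0398). Mice with the same number shared no consistent deviation (r = 0.17, -0.07, 0.21 and -0.02), beside -0.31 to 0.25 for mice with different numbers. The labels do not say whether the numbers pair the mice, and so few values cannot exclude it. Car9 was absent under the filter of 10 counts in every sample, and DESeq2 gave no adjusted p for Aldoc. Depth limits Car9, Adm, Ankrd37 and Slc16a3, whose counts were low.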
